A study of Rattus norvegicus with 6 samples.

Results

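The mRNAs that encode the proteins of the cytosolic ribosome were followed in rat aortic smooth muscle cells (RASMCs) challenged with components of extracellular traps (ETs). The members were all rows of the count table whose symbol has the form of a ribosomal protein gene (Rpl, Rps, Rpsa, Rplp0, Rplp1 and Rplp2), which gave 81 of 22574 gene symbols, 49 of the large subunit (Rpl) and 32 of the small subunit (Rps). Fau and Rack1, which also encode ribosomal proteins, and symbols such as Rpl7l1 and Rpl36al fall outside that form and are described separately.

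The study asked how ETs act on vascular smooth muscle cells, and RNA was sequenced in 6 libraries of primary RASMCs from male Sprague-Dawley rats. In 3 libraries the cells had received 0.03 μM citrullinated histone H3 (H3CIT) and 300 ng/ml double-stranded DNA (dsDNA), which are building blocks of ETs, and the 3 control libraries came from cells given bovine serum albumin instead. The labels write H3CIT as CitH3, and no genetic change is named for any of the cells. The replicate wells were seeded with cells of 1 rat, so p-values here measure the spread between wells and library preparations, not between animals, and the purified components stand in for whole ETs.

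The ribosome has a small subunit, which reads the mRNA, and a large subunit, which joins the amino acids, and each subunit holds its proteins in fixed proportion around ribosomal RNA. Cells therefore make the ribosomal proteins as a coordinated group. The mRNAs of most of them begin with a run of pyrimidines at the cap, the 5′ terminal oligopyrimidine (TOP) tract, through which TORC1 signaling controls their translation. Translation itself is not read by mRNA counts.

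Library totals lay between 17573905 and 18742395 counts, and values below are counts or CPM, that is, counts scaled to a common library size after TMM. Control replicate 3 stood apart from the other controls over all genes, with a chi-square per gene of 6.91 and 5.41 against replicates 1 and 2, which differed from each other by 3.31. All 10 smooth muscle markers were detected, with summed CPM of 9402 to 9949 in the H3CIT+dsDNA libraries and 12182 to 13060 in controls. In edgeR 4 of them (Acta2, Tagln, Cnn1 and Smtn) were called lower, against 0.262% of all genes tested. Of the 10, 8 had a negative and 2 a positive log2 fold change, and 1 was higher at an unadjusted p under 0.05. The call of Smtn was absent in limma-voom, and DESeq2 called Cald1 higher. The summed CPM of 6 endothelial markers was 8.44 to 8.91 and 9.81 to 10.5, that of 7 macrophage and leukocyte markers 72.2 to 74.5 and 73.4 to 76.5, and that of 5 fibroblast markers 2.64 to 4.14 and 2.59 to 4.93, and no marker was at 0 in all libraries. The part of these markers in the results below was not tested, and in bulk RNA fewer cells of a type and less RNA per cell cannot be told apart.

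The start of the mRNA is shown for 4 ribosomal protein genes and Rack1, because the TOP tract is the sequence these mRNAs share. The 4 cover a gene called lower (Rpl9) and the lowest estimate among the well-counted small subunit genes (Rps3a). They also cover a pair of genes whose highest value was in H3CIT+dsDNA replicate 3 (Rps27 and Rplp1). Each line gives 30 bases of RefSeq sequence on the rat assembly GRCr8, 5′ to 3′ on the strand of the gene, from 10 bases before the annotated start to 20 bases from it. Capitals mark the unbroken run of pyrimidines that contains the start.
Rpl9, chr14:43247580-43247609, plus strand: aggacgTTCTCTCTTTgccccatctactgc
Rps3a, chr2:173827023-173827052, minus strand: gtacttccgCCCTTTTggctctcagagcgg
Rps27, chr2:177964587-177964616, minus strand: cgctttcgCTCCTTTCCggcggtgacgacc
Rplp1, chr8:71290853-71290882, minus strand: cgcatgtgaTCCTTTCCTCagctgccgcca
Rack1, chr10:33670540-33670569, plus strand: ctctccgagtatttccggttccggcggagg

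The run was 10 bases long in Rpl9 and Rplp1, 9 in Rps27 and 7 in Rps3a, and Rack1 had none at its annotated start. A RefSeq start was at hand for 64 of the 81 members. Of the 64, 39 (60.9%) had a run of at least 5 pyrimidines over the start, against 12.0% of 33469 RefSeq starts. Any member with several annotated starts was scored at its longest run, whereas every start was counted in the comparison, so the shares here are not fully alike. The share with such a run was 61.5% in the large and 60.0% in the small subunit. The motif CTTTC, searched on both strands of the 30 bases, occurred in 40.6% of the members and 7.18% of all starts, and the longer CTCTTTC, which contains it, in 15.6% and 0.672%. These letters describe the annotated starts of a later assembly than the one the authors used, and a match is no measure of translation.

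In edgeR's test 2 ribosomal protein genes passed, with small changes. Their share was near that of all genes called, and above that of all genes called lower. DESeq2, which the authors used, called 8, as given below. Of the 76 members with enough counts to be tested (45 large, 31 small), 2 were called at an adjusted p under 0.05 in edgeR's quasi-likelihood test, both of the large subunit and both lower after H3CIT+dsDNA. That is 2.63% of the members tested, where 2.2% of all 12591 genes tested were called in either direction, 0.262% were called lower and 1.94% higher. Among the 2132 genes with a mean of at least 100 CPM, 2.06% were called and 0.516% were called lower. The called genes were Rpl7 and Rpl9.

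Rpl9, whose protein lies near the site where translation factors bind, had 9862, 9709 and 10139 counts after H3CIT+dsDNA and 11052, 11561 and 11288 counts in controls. All 3 H3CIT+dsDNA libraries lay below all 3 controls on both scales. The level was 551 ± 7.32 CPM against 617 ± 7.71 CPM (mean ± SD, n = 3 each), which is a log2 fold change, with its standard error (SE), of -0.16 (SE 0.03, edgeR adjusted p = 0.0126). The call was lost without H3CIT+dsDNA replicate 1 (edgeR adjusted p = 0.0830), without control replicate 1 (0.0565) and without control replicate 2 (0.0918), with log2 fold changes between -0.15 and -0.16, and the adjusted p ranged from 3.1e-05 to 0.0918 over all alternatives.

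Rpl7, another protein of the large subunit, had 8636, 8438 and 8026 counts after H3CIT+dsDNA and 9616, 10061 and 9320 in controls, again without overlap. Its level in controls was 528 ± 22.2 CPM (SD, n = 3) and it fell to 466 ± 20.5 CPM, a log2 change of -0.18 (SE 0.04, edgeR adjusted p = 0.0430). This call was lost without any 1 library other than control replicate 3, with an adjusted p from 0.0575 to 0.20 in those 5 fits, and also with library size alone (0.0552), and across all alternatives the adjusted p spanned 0.00113 to 0.20.

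The other members had estimates of the same small size that mostly lay on the lower side. Of the 76 tested, 68 had a negative log2 fold change, 42 of 45 in the large and 26 of 31 in the small subunit, and the median was -0.075 over all members. Over all genes tested the median was -0.0013, and over the genes with at least 100 CPM it was -0.023, with 65.9% of them negative. An unadjusted p under 0.05 with a lower level was reached by 29 members (38.2%), 20 large and 9 small, against 5.3% of all genes tested and 11.3% of the genes with at least 100 CPM. That number was 15 with library size alone, 10 without control replicate 2 and 49 without control replicate 3. The share of all genes at this threshold was computed for the main fit only. In the other direction the threshold was reached by 1 member, Rpl3l, against 8.64% of all genes. The members share libraries and are not independent of each other, so no p is given for the group.

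Complete separation with the H3CIT+dsDNA libraries below was somewhat less frequent in the members than in genes with at least 100 CPM. The 3 H3CIT+dsDNA libraries lay below the 3 controls in 11 of 76 members (14.5%), against 8.43% of all genes tested and 16.8% of the genes with at least 100 CPM. Among them were Rpl5, Rpl7, Rpl9, Rpl11, Rpl18 and Rpl26 of the large and Rps3a, Rps4x and Rps7 of the small subunit. They lay above the controls in 1 member, Rpl3l, against 10.7% of all genes. The 95% interval of the log2 fold change lay within -0.25 and 0.25 for 70 of the 76 members. The same held for 2027 of the 2132 genes with at least 100 CPM and for 6312 of all 12591 genes tested. Of the 76 members, 74 had an estimate under 0.2 in size.

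**Figure D1:**
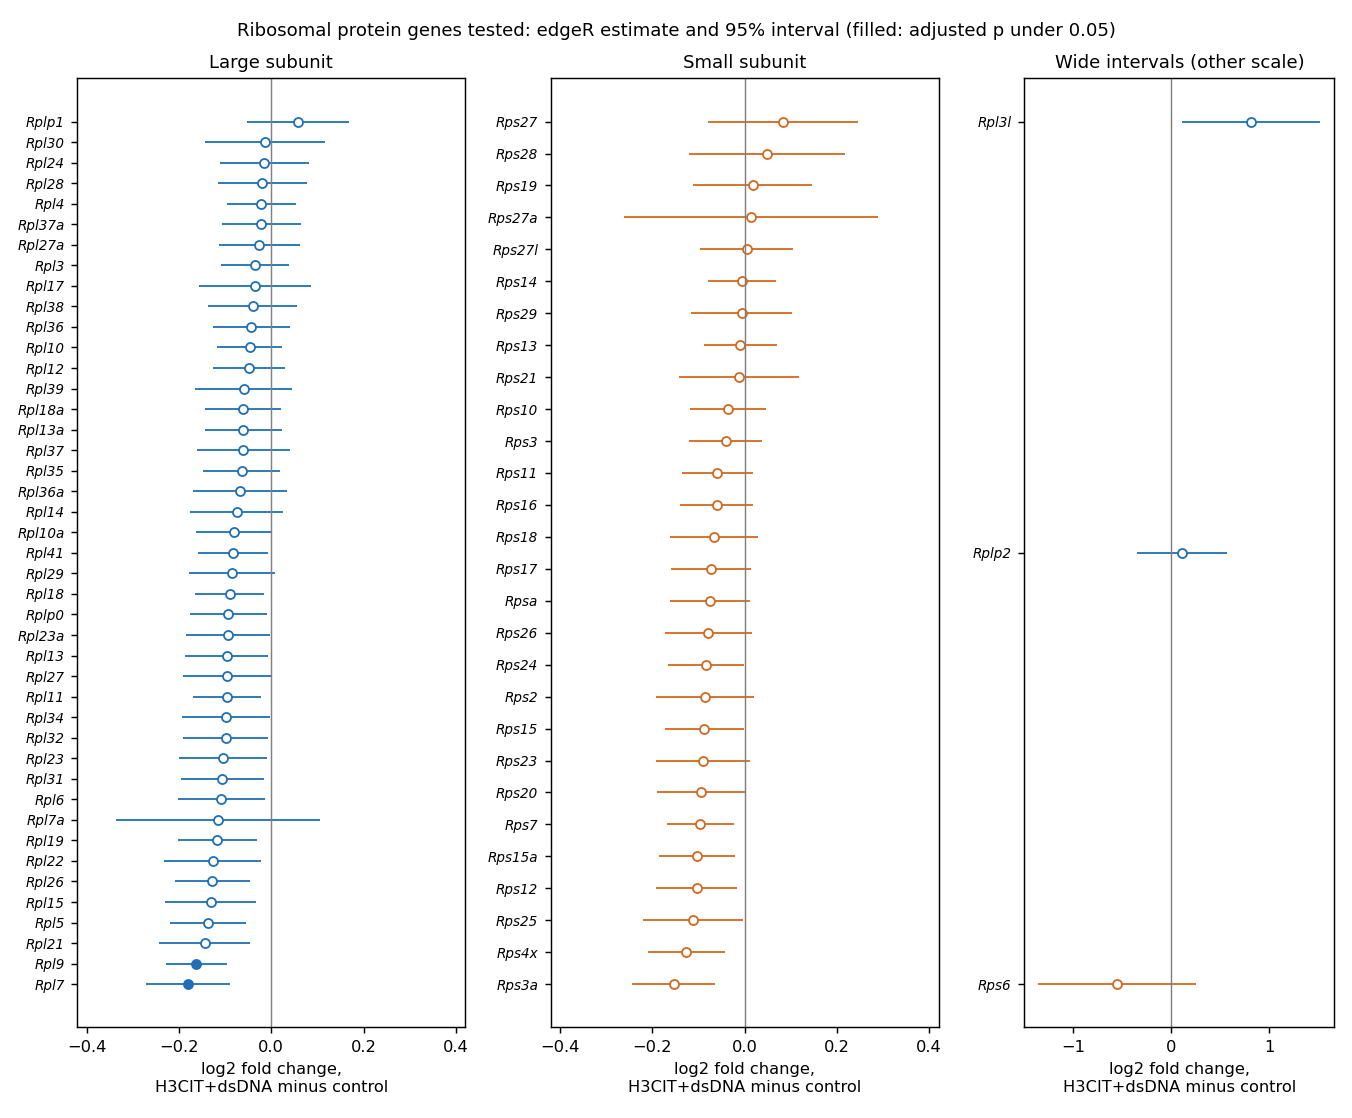
Log2 fold change (H3CIT+dsDNA minus control, x axis) with its 95% interval from edgeR for ribosomal protein genes tested, one gene per line, in panels for the large subunit, the small subunit and 3 low-count genes drawn on a wider axis. Most estimates lie left of 0, and of the genes drawn only Rpl7 and Rpl9 are filled, which marks an adjusted p under 0.05.

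The summed level of each subunit was lower on average after H3CIT+dsDNA, but the groups overlapped, with 1 control library among the H3CIT+dsDNA libraries. The 49 large subunit genes summed to 34103, 35500 and 34152 CPM after H3CIT+dsDNA and to 37394, 37052 and 34743 CPM in controls. Control replicates 1 and 2 were above all H3CIT+dsDNA libraries, whereas control replicate 3 lay between H3CIT+dsDNA replicates 3 and 2. The group means were 34585 ± 793 and 36396 ± 1442 CPM (SD, n = 3 each), a difference of -4.98% after H3CIT+dsDNA.

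The 32 small subunit genes summed to 25689, 27152 and 26214 CPM after H3CIT+dsDNA and to 28090, 28198 and 26434 CPM in controls. The order of the libraries was the same in that control replicate 3 fell among the H3CIT+dsDNA libraries. The means were 26352 ± 741 and 27574 ± 988 CPM (SD, n = 3 each), a difference of -4.43%. Together the members took 6.02% to 6.28% of all counts after H3CIT+dsDNA and 6.11% to 6.48% in controls, so that these ranges overlapped.

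The balance of large to small subunit mRNA overlapped between the groups. The ratio of their summed CPM was 1.33, 1.31 and 1.30 in the H3CIT+dsDNA libraries and 1.33, 1.31 and 1.31 in the control libraries, with means of 1.313 ± 0.0131 and 1.320 ± 0.00986 (SD, n = 3 each). The means differed by 0.55%, less than either SD, the H3CIT+dsDNA mean being lower. The median log2 change was -0.080 in the large and -0.074 in the small subunit. The ratio was not tested, because 3 libraries against 3 cannot give a two-sided exact permutation p under 0.1. With the geometric mean over members in place of the sum the ratio was 1.53% higher after H3CIT+dsDNA. That mean gives every tested member the same weight, including the sparsely counted Rpl3l (log2 change 0.82) and Rps6 (-0.55). It was not computed without these genes.

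**Figure D2:**
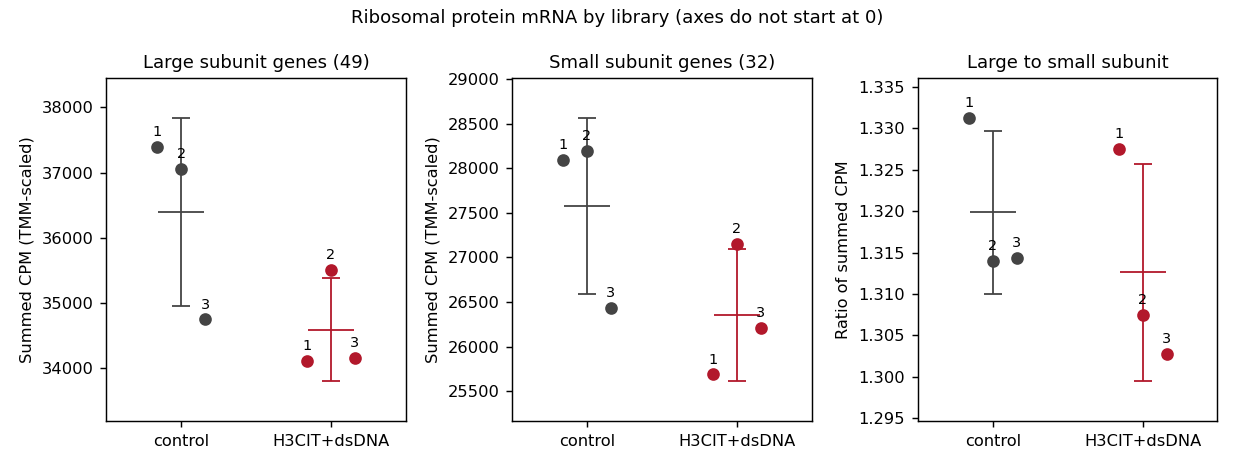
Summed CPM of the large and small subunit genes and the ratio of both sums (y axes, not starting at 0) in each library, numbered by replicate, with the group mean and SD as bars. Control replicate 3 lies beside the H3CIT+dsDNA libraries in both sums, and the ratios of the groups overlap.

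Control replicate 3 was below the mean of control replicates 1 and 2 in 72 of the 76 members tested, by a median of 0.10 on the log2 scale. The exceptions were Rpl3l, Rplp2, Rps27a and Rps6. Without this library 9 members were called, all lower, among them Rpl5, Rpl7, Rpl9, Rpl15, Rpl19, Rpl26, Rpl31 and Rps3a, against 0.447% of all genes called lower in that fit, and the median of the members was -0.11. Without H3CIT+dsDNA replicate 1, control replicate 1 or control replicate 2 no member was called, while 1.29%, 1.44% and 1.51% of all genes were. In those fits 14, 11 and 10 members were lower at an unadjusted p under 0.05 in edgeR. DESeq2 with all 6 libraries called 8 members, all lower, against 0.405% of all genes, among them Rpl5, Rpl7, Rpl9, Rpl21 and Rpl26 of the large and Rps3a and Rps4x of the small subunit. The number of members called thus ranged from 0 to 9 across the alternatives, and no call was higher in any of them.

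Among the large subunit genes that were not called, Rpl5 carries a small ribosomal RNA into the subunit and binds the p53 regulator Mdm2 when assembly fails. It had 637, 664 and 652 CPM after H3CIT+dsDNA and 744, 723 and 680 CPM in controls. The groups did not overlap, and the log2 change was -0.14 (SE 0.04, edgeR adjusted p = 0.0972, DESeq2 adjusted p = 0.0157). Rpl26, which binds p53 mRNA, had 648, 667 and 654 CPM against 747, 725 and 680 CPM in controls, a log2 change of -0.13 (edgeR adjusted p = 0.119).

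Rpl21 and Rpl15, structural proteins of the large subunit, had log2 fold changes of -0.14 (edgeR adjusted p = 0.152) and -0.13 (edgeR adjusted p = 0.208). In both, 1 H3CIT+dsDNA library, replicate 2, exceeded the lowest control: 545 against 544.9 CPM for Rpl21 and 507 against 499 CPM for Rpl15. Rpl19, which reaches toward the small subunit, had -0.12 (edgeR adjusted p = 0.190), and Rpl31, at the exit of the nascent chain, had -0.11 (edgeR adjusted p = 0.275). The adjusted p of Rpl15, Rpl19 and Rpl31 passed the threshold without control replicate 3 alone, at 0.0439, 0.0329 and 0.0315. Rpl22, which mice can live without, had a log2 change of -0.13 with overlapping groups (edgeR adjusted p = 0.254).

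Among the small subunit genes none was called in edgeR, 9 were lower at an unadjusted p under 0.05, DESeq2 called 3 and limma-voom 0. Rps3a, whose protein sits where the mRNA leaves the ribosome, had 703, 722 and 668 CPM after H3CIT+dsDNA and 795, 801 and 734 CPM in controls. Its groups did not overlap, and the log2 change was -0.15 (SE 0.04, edgeR adjusted p = 0.0875), with a range of the adjusted p from 0.00885 to 0.320 over the alternatives.

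Rps4x, the X-linked member of its family, had 951, 1005 and 914 CPM against 1072, 1040 and 1019 CPM in controls, without overlap (log2 change -0.13, edgeR adjusted p = 0.138). Rps25, which some viral mRNAs need to recruit the small subunit, had overlapping groups and a log2 change of -0.11 (edgeR adjusted p = 0.340). The most counted small subunit genes were Rps2 and Rpsa. Rps2, near the entry of the mRNA, had 59462, 59787 and 52728 counts against 60796, 64765 and 60728, a log2 change of -0.09 (edgeR adjusted p = 0.472), and its lowest value was H3CIT+dsDNA replicate 3. Rpsa, also known as the laminin receptor, had a log2 change of -0.08 (edgeR adjusted p = 0.440).

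**Figure D3:**
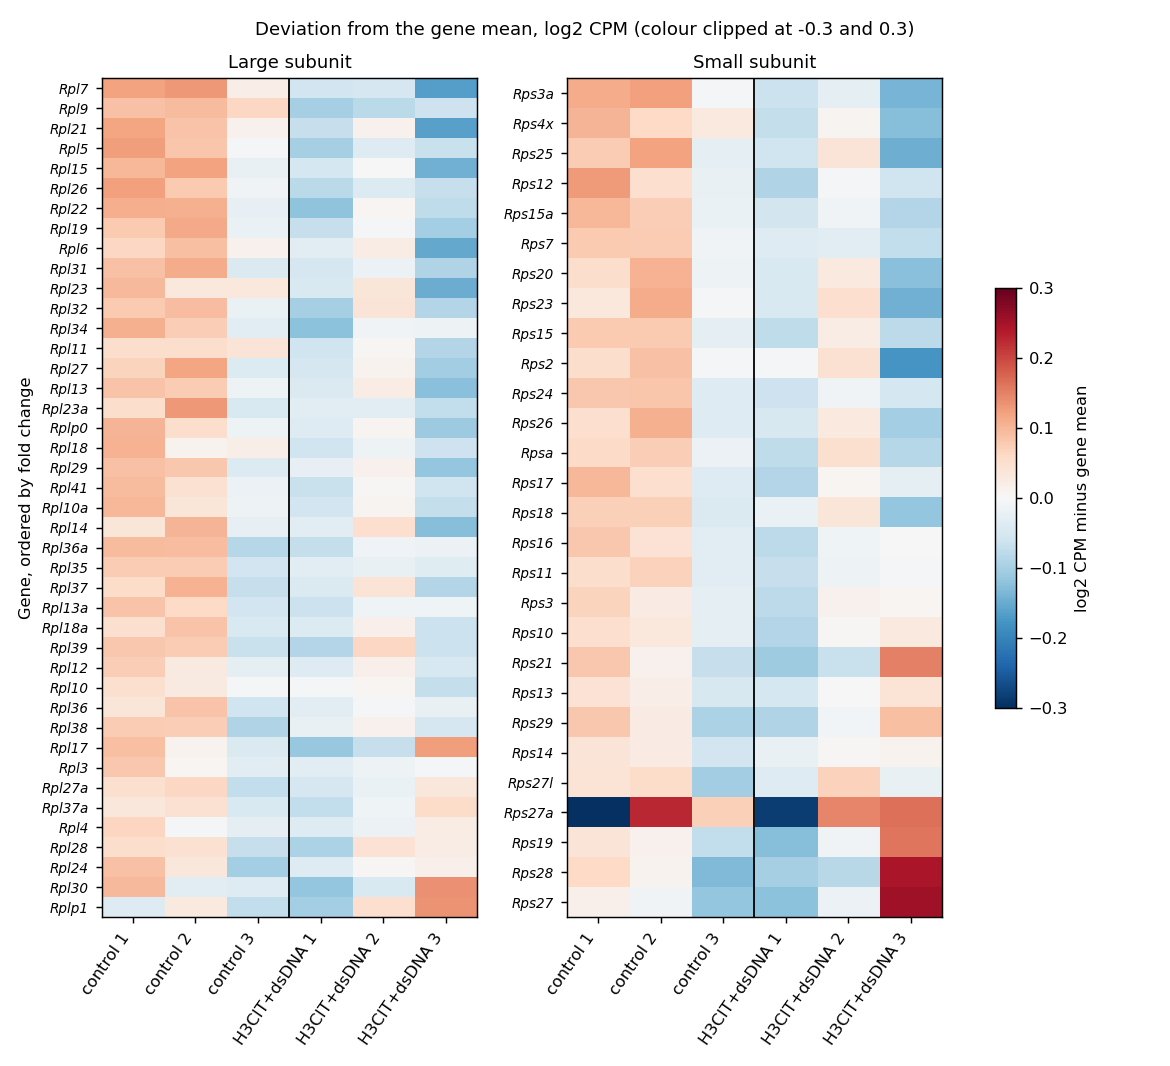
Deviation of each library from the gene's mean (log2 CPM, colour, clipped at -0.3 and 0.3) for tested members with over 1000 counts in every library, genes ordered by fold change. Control replicates 1 and 2 are mostly red, control replicate 3 is mostly near 0 or blue, Rps27a is deep blue in replicate 1 of both groups, and H3CIT+dsDNA replicate 3 is deep red for Rps27, Rps28, Rps19, Rps21, Rpl30, Rpl17 and Rplp1.

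H3CIT+dsDNA replicate 3 stood apart for a subset of members. It lay more than 0.15 on the log2 scale above the mean of H3CIT+dsDNA replicates 1 and 2 in 9 members, Rplp2 (0.94), Rps28 (0.33), Rps27 (0.32), Rps21 (0.24), Rps27a (0.23), Rps19 (0.23), Rpl30 (0.22), Rpl17 (0.22) and Rplp1 (0.16), and more than 0.15 below it in Rps6 and Rps2. The median over the tested members was -0.026. With all libraries 8 members had a positive log2 fold change, 6 of them among these 9 (Rplp1, Rplp2, Rps19, Rps27, Rps27a and Rps28), and without H3CIT+dsDNA replicate 3 only Rpl3l, Rplp1 and Rps27l did. With replicate 3 of both groups left out, 75 of 76 members were negative, Rpl3l being the exception, and 4 were called lower (Rpl5, Rpl7, Rpl9 and Rps3a), against 0.245% of all genes called lower in that fit.

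Rps27, a zinc finger protein of the small subunit, had 498, 536 and 648 CPM after H3CIT+dsDNA and 549, 539 and 501 CPM in controls. Its log2 change was 0.08 (SE 0.07, edgeR adjusted p = 0.669), and replicate 3 alone exceeded every control. Rps28, close to the exit of the mRNA, had 488, 493 and 619 CPM against 544, 526 and 477 CPM, a log2 change of 0.05 (edgeR adjusted p = 0.834). Rps19, the gene most often mutated in Diamond-Blackfan anemia, had 542, 588 and 662 CPM against 609, 599 and 564 CPM (log2 change 0.02, edgeR adjusted p = 0.932). In all 3 genes the highest of the 6 values was H3CIT+dsDNA replicate 3 and the estimate was negative without it.

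**Figure D4:**
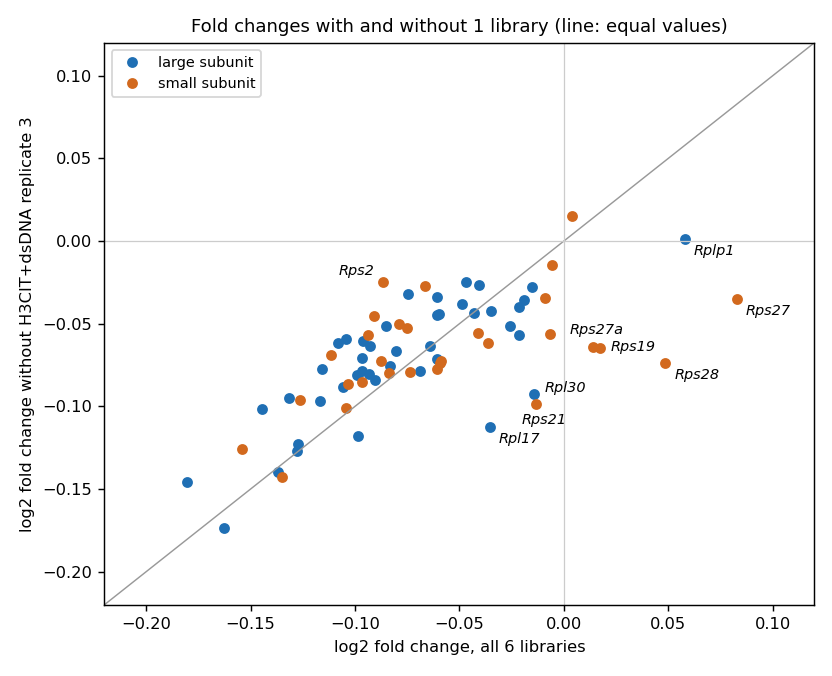
Log2 fold change of each tested member without H3CIT+dsDNA replicate 3 (y axis) against that with all 6 libraries (x axis), 3 low-count genes left out, and the diagonal marking equal values. Genes that differ by more than 0.15 between that library and the other replicates are named, and Rps27, Rps28, Rps19 and Rps27a cross from above 0 to below 0.

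Rps27a, which is made as a fusion with ubiquitin, varied widely within both groups, with 10857, 14240 and 14857 counts after H3CIT+dsDNA and 10385, 15849 and 14240 counts in controls. Replicate 1 was the lowest of each group, and the log2 change of 0.01 had a SE of 0.13 (edgeR adjusted p = 0.977). Rps27l, a copy of Rps27 that p53 induces, had a log2 change of 0.0040 with a 95% interval from -0.098 to 0.11 (edgeR adjusted p = 0.983).

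The P stalk of the large subunit, which recruits elongation factors, is built of Rplp0, Rplp1 and Rplp2. Rplp0 had 3040, 3143 and 2894 CPM after H3CIT+dsDNA and 3354, 3237 and 3089 CPM in controls, a log2 change of -0.09 (edgeR adjusted p = 0.296). Rplp1 had 1112, 1236 and 1311 CPM against 1163, 1218 and 1134 CPM, a log2 change of 0.06 (edgeR adjusted p = 0.664). Rplp2 was sparsely counted under this symbol, with 264, 258 and 510 counts against 295, 287 and 389, and replicate 3 was the highest library of each group (log2 change 0.11, edgeR adjusted p = 0.862). None of the stalk genes was called, and their groups overlapped.

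Among the other highly counted genes, Rpl41, the shortest of the ribosomal proteins, had a log2 change of -0.08 (edgeR adjusted p = 0.312). Rpl3, next to the site of peptide bond formation, had 1821 ± 16.9 CPM after H3CIT+dsDNA and 1866 ± 75.5 CPM in controls (SD, n = 3 each), a log2 change of -0.03 with a 95% interval from -0.11 to 0.038 (edgeR adjusted p = 0.696). Rpl24, which forms a bridge to the small subunit, had a log2 change of -0.02 with a 95% interval from -0.11 to 0.081 (edgeR adjusted p = 0.919). Both intervals lie within the 0.25 on either side of 0 named above.

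The paralogues that replace a ribosomal protein in particular tissues were at low counts. Rpl3l, the copy of Rpl3 found in striated muscle, had 21, 14 and 19 counts after H3CIT+dsDNA and 11, 9 and 11 in controls. It was the only member whose H3CIT+dsDNA libraries all lay above the controls, with a log2 change of 0.82 (SE 0.33, 95% interval 0.11 to 1.53), and it was not called (edgeR adjusted p = 0.274, range 0.231 to 0.659 over the alternatives). Rpl10l, the testis copy of Rpl10, had 5, 1 and 2 counts against 5, 1 and 3, and Rpl39l, a copy of Rpl39 also best known from testis, had 4, 8 and 10 against 7, 6 and 10. Both were under the filter, and at this depth no change in them could be detected. Their partners Rpl10 (log2 change -0.05, edgeR adjusted p = 0.568) and Rpl39 (-0.06, adjusted p = 0.625) were not called.

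Some members that every cell needs had few counts under their own symbol. Rps6, the substrate of the S6 kinases, had 17, 18 and 7 counts after H3CIT+dsDNA and 22, 16 and 25 in controls (log2 change -0.55, SE 0.37, edgeR adjusted p = 0.548), and Rpl7a had 12.7 ± 0.652 and 13.7 ± 1.78 CPM (SD, n = 3 each; log2 change -0.12, edgeR adjusted p = 0.660). Rpl8 had 4, 2 and 1 counts against 5, 5 and 2, Rpl35a 7, 11 and 1 against 5, 9 and 2, and Rps9 1, 0 and 1 against 0 in all 3 controls, and these 3 genes were not tested. Ribosomal protein genes have many processed copies in the genome, and the sources used here do not say how reads that match several places were counted. Levels of these members are therefore uncertain, and counts are not compared between genes, since they also scale with transcript length.

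RefSeq names 64 other rows of the table as copies of 38 members, and 79 of the 81 members have a RefSeq entry by symbol. For Rpl30, which had a log2 change of -0.01 alone, the row Rpl30l2 held 6055, 6438 and 5565 counts after H3CIT+dsDNA and 6507, 7379 and 6451 in controls. Its lowest value was the library in which Rpl30 itself was highest, H3CIT+dsDNA replicate 3, and the sum of both rows was 8909, 9349 and 8969 counts against 9762, 10475 and 9533. In CPM the sum was 491, 530 and 494 against 547, 564 and 514, so that the groups overlapped, with H3CIT+dsDNA replicate 2 above control replicate 3 (log2 change -0.10, edgeR adjusted p = 0.312).

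The rows of Rpl17 and its copy behaved alike in this respect. Its copy Rpl17-ps16 had 4178, 4291 and 3202 counts after H3CIT+dsDNA and 4304, 4990 and 4434 in controls, lowest where Rpl17 was highest. The sum with this and a minor copy, Rpl17l5, was 12814, 12922 and 13395 counts against 14079, 14618 and 13684, and the log2 fold change went from -0.04 for Rpl17 alone to -0.09 for the sum (edgeR adjusted p = 0.295). A further row that RefSeq itself names Rps9 brought the sum for that gene to 2202, 218 and 287 counts against 240, 188 and 241, where the high value was in H3CIT+dsDNA replicate 1 alone (edgeR adjusted p = 0.186). With all copies added to their members, 2 members were again called, Rpl7 and Rpl9, against 2.21% of all genes.

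As a check on the deposited values, in no member were the 3 counts of a group consecutive whole numbers. The median log2 fold change was -0.069 in 37 tested members with a run of at least 5 pyrimidines at the annotated start and -0.075 in 25 without one, and 1 and 0 of them were called.

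The ribosomal proteins outside the naming rule included 1 called gene, Rack1. Rack1, a scaffold protein on the head of the small subunit that ties the ribosome to signaling kinases, had 23949, 24887 and 24192 counts after H3CIT+dsDNA and 15663, 14565 and 17656 in controls. All H3CIT+dsDNA libraries lay above all controls. It rose from 871 ± 83.4 CPM to 1355 ± 49.7 CPM (SD, n = 3 each), a log2 change of 0.64 (SE 0.06, edgeR adjusted p = 9.74e-06), and it was called under all 17 alternatives, with an adjusted p of at most 0.00407.

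No other ribosomal protein gene tested outside the rule was called. Fau, a fusion that yields a small subunit protein, had a log2 change of -0.05 (edgeR adjusted p = 0.616). The copies Rpl7l1, Rpl22l1 and Rpl36al had -0.02, -0.02 and 0.01 (edgeR adjusted p = 0.886, 0.931 and 0.993), and Rps4y2 was under the filter. Rpl36al had 2592, 1777 and 2693 counts against 2909, 2245 and 1984 in controls, so its libraries varied more within groups than between them.

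Calls in the wider translation machinery stand beside 2.2% of all genes called in either direction and 1.94% called higher. In lists this short, 1 call cannot be told apart from that share. Of 20 other TOP mRNAs tested, only Rack1 was called, the median log2 change was -0.034 and 16 were negative. Of 37 translation initiation factors 1 was called: Eif3a, the scaffold of the initiation factor that holds the small subunit, was higher by 0.23 (SE 0.04, edgeR adjusted p = 0.00963), a call lost without H3CIT+dsDNA replicate 1 (0.0833) or control replicate 1 (0.0581). Of 13 elongation and release factors 1 was called: Abce1, which splits the subunits after termination, was higher by 0.21 (SE 0.04, edgeR adjusted p = 0.0143), a call lost without H3CIT+dsDNA replicate 1 (0.0718), H3CIT+dsDNA replicate 3 (0.0733), control replicate 2 (0.0935) or replicate 3 of both groups (0.0658).

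Of 66 ribosome biogenesis genes none was called in the main edgeR fit, DESeq2 or limma-voom. The median was -0.026, with 10 lower and 1 higher at an unadjusted p under 0.05 in edgeR. Among the alternatives, 1 gene was called lower with no filter on low counts and without control replicate 3. Of 15 regulators of ribosomal protein output in the TORC1 and Myc pathways none was called by the same 3 tools, with a median of 0.053 and 2 higher at an unadjusted p under 0.05. These lists hold the factors that build ribosomes and the signals that set their number.

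Both lists of genes outside the cytosolic ribosome that were chosen for comparison had negative medians too. The 73 mitochondrial ribosomal protein genes tested, which encode a separate ribosome, had a median log2 change of -0.076 with 60 negative, and the 37 short mRNAs of the nuclear-encoded respiratory chain had -0.044 with 30 negative. None of either list was called in the main edgeR fit, DESeq2 or limma-voom. At an unadjusted p under 0.05 in edgeR, 11 were lower and 1 higher in the first list, and 4 lower and 0 higher in the second. Among the alternatives, robust dispersions called 1 mitochondrial ribosomal protein gene lower and no filter called 1 higher. Without H3CIT+dsDNA replicate 2, 1 was called lower and 1 higher.

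By library, the median deviation from the gene mean in control replicates 1, 2 and 3 was 0.080, 0.073 and -0.031 for the large subunit, 0.072, 0.059 and -0.029 for the small subunit and 0.062, 0.040 and -0.014 for the mitochondrial ribosomal proteins (log2 scale). In H3CIT+dsDNA replicates 1, 2 and 3 it was -0.053, 0.0028 and -0.065, then -0.071, 0.0030 and -0.052, and -0.049, 0.0077 and -0.062 for the same lists. Control replicates 1 and 2 were thus the highest and the other 4 libraries lay at or below 0 in all 3 lists, except that H3CIT+dsDNA replicate 2 was slightly above 0. Whether a property of the libraries underlies this shared order was not tested.

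**Figure D5:**
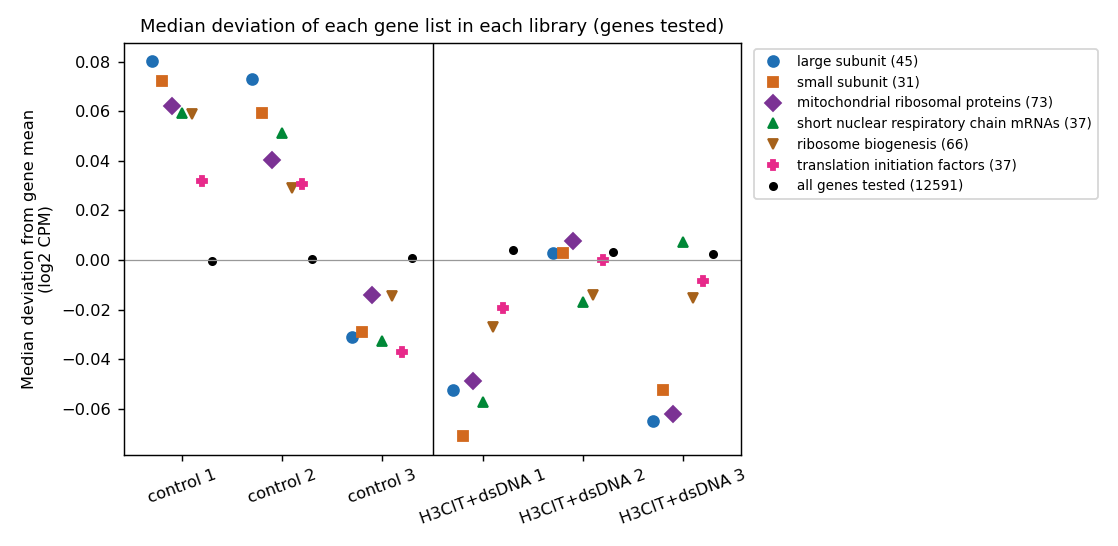
Median deviation from the gene mean (log2 CPM, y axis) in each library for the genes tested of 6 lists and for all 12591 genes tested. The subunits, the mitochondrial ribosomal proteins and the respiratory chain mRNAs are high in control replicates 1 and 2 and low in H3CIT+dsDNA replicate 1, while all genes stay near 0.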

How the data were processed

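The authors sequenced stranded mRNA libraries from RASMCs, aligned the reads with TopHat to rat assembly Rnor6.0, counted reads per gene with HTSeq and deposited raw counts for 22574 gene symbols. The submitters' processing notes also list TopHat2 2.1.1, Cufflinks 2.2.1 and Cuffdiff. The strand setting and the handling of reads with several matches were not given in the sources used here, so near-identical and overlapping genes can share reads.

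Samples were grouped by their titles, 3 H3CIT+dsDNA and 3 control, and all 6 columns were used. In R 4.3.3, edgeR 4.0.16 was used for the filter (filterByExpr), the TMM scaling and a two-sided quasi-likelihood test. P-values were adjusted by Benjamini-Hochberg over all 12591 genes that passed the filter, and the threshold for a call was 0.05. The standard error is the size of the unshrunken coefficient over the square root of F, and 95% intervals use the degrees of freedom of the fit. Deviations by library are on the log2(CPM + 0.1) scale. No 2 replicate libraries were duplicates (chi-square per gene 3.31 to 6.91).

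The members, lists, named genes and tests were chosen with earlier results of these data known. Named were all called members, the 5 highest and 5 lowest estimates in each subunit, the 5 most and 5 least counted tested members, stalk genes and paralogues, members whose call changed in an alternative, called genes of the lists, and ribosomal protein genes outside the rule. Rpl11, Rpl17, Rpl18, Rps7, Rps9, Rpl8, Rpl35a, Rps21 and the copies were named after their values were seen.

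The alternatives in edgeR were a replicate block, leaving out 1 library at a time, robust dispersions, scaling by library size alone, by the upper quartile or by DESeq2 size factors, and a filter of 10 counts per library or none. Other tools were limma-voom (limma 3.58.1) and DESeq2 1.42.0, and DESeq2 is the tool that the paper names for its differential expression. Leaving out replicate 3 of both groups and adding near-identical copies were chosen after seeing the data. The fits were tested on simulated counts. Gene names and start sequences came from RefSeq GRCr8, and no coordinates of Rnor6.0 were used. Some genes are not reported here by name or drawn by name, and stay in the counts.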

Additional observations from a re-analysis of the deposited data

How the results depend on the processing

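Against 2 ribosomal protein genes called (2 large, 0 small), library size alone gave 1 (1 large), DESeq2 gave 8 (5 large, 3 small), robust dispersion estimates gave 5 (2 small), no filter on low counts gave 3 (1 small), and leaving out replicate 3 of both groups gave 4 (1 small). In the same order, those settings called 2.7%, 2.47%, 2.99%, 2.12% and 1.77% of all genes tested, against 2.2% in the main fit. Leaving out single libraries gave 0 to 9 members, 0 to 7 large and 0 to 2 small, with the most without control replicate 3. Of all genes tested, 1.29% to 2.8% were called in those fits, and the cause of this range was not tested. With a replicate block 3 members were called, 1 of the small subunit (Rps3a), against 1.68% of all genes. The block changed no other call of a member. The labels do not say whether the replicate numbers pair the libraries. The correlations of same-numbered libraries were -0.046, 0.0049 and 0.035, where all 9 between the groups lay from -0.046 to 0.042. Of 6 libraries, 2 correlated best with their own number. With 3 libraries in each group these values can neither show nor exclude a pairing.

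The log2 ratio of the large to the small subunit was -0.0080 and became 0.022 with the geometric mean of the members. In that mean the sparsely counted Rpl3l and Rps6 weigh as much as any other member. Both move the ratio upward, since Rpl3l (large) was higher and Rps6 (small) lower after H3CIT+dsDNA. The ratio was not computed without them, so whether its sign rests on them was not tested. The median log2 fold change of both subunits stayed negative in all alternatives run. Of the estimates for named genes under the alternatives, 643 kept their side of the threshold, 20 passed it newly, 15 no longer passed it and 0 reversed while called.

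Genes under the filter, among them Rpl8, Rps9 and Rpl35a, could not be assessed from the counts under their own symbols. With their copies added, these named genes were tested and not called (edgeR adjusted p = 0.914, 0.186 and 0.695). The median SE of the tested members was 0.042 on the log2 scale, and no animal replicates stand behind it.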
